A study of Homo sapiens with 50 samples.

Results

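The high mobility group (HMG) proteins are abundant chromatin proteins that are not histones. Their hairpins made up 44 of the 3443 short hairpin RNAs (shRNAs) in this screen. Rows were matched by name, as every row whose gene column held exactly HMGA1, HMGA2, HMGB1, HMGB2, HMGB4, HMGN1, HMGN3, HMGN4 or NSBP1. The genes themselves were chosen with earlier results of these data known. NSBP1 is the older symbol of HMGN5 in RefSeq. HMGA2 had 4 hairpins and each of the other 8 genes had 5.

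The cells were IMR90, lung fibroblasts of human origin whose divisions cease after many passages (replicative senescence), cultured in 3% oxygen. Lentiviruses, each carrying 1 hairpin meant to lower 1 gene, were given at 0.3 infectious units per cell (multiplicity of infection). Per the design text, plasmids were divided at random among 5 initial pools, and these were joined in pairs to infect 10 plates, so that each hairpin was carried by 4 of them. Each pool also held control hairpins, among them 1 that was not directed at any gene. All groups were these same infected cultures on serial passage, sampled as genomic DNA at population doublings (PD) 40, 45, 50, 55 and 60, where PD40 was proliferating and PD60 senescent; no group was left uninfected. The question was which chromatin regulators limit lifespan, read from hairpins that gain abundance as a culture is passaged. The deposited table gave 1 pooled column of sequence tags per PD, with totals of 8270745 to 11505688. There was thus no replicate column, no p-value could be given, and the spread between plates is unknown. Intervals below are 95% counting intervals and cover counting error only, since PCR copies carried no molecular identifiers. The table measured neither the knockdown of any target nor any RNA, so the fibroblast label could not be checked against marker genes.

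HMGA proteins bind the minor groove of AT-rich DNA through AT-hooks and are known to accumulate in the heterochromatin foci of senescent fibroblasts. HMGB proteins bend DNA with HMG boxes; HMGB1 is also known to leave the nucleus of senescent cells and act outside the cell as an alarm signal. HMGN proteins bind nucleosomes and compete with linker histone H1, loosening chromatin. The hairpin sequences were not used here, so hairpins are given by their catalogue names.

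At PD60, 2 of the 44 hairpins were over 2-fold higher than at PD40 and the other 42 were over 2-fold lower. The 2 were HMGB1 TRCN0000018930, at 27.1 times its PD40 abundance, and NSBP1 TRCN0000019876, at 2.08 times. Folds are of CPM, the tags scaled to a common column total. Calls used the log2 of CPM plus 1, for hairpins with at least 10 tags in either column, and all 44 passed that filter by their PD40 count alone. Over all hairpins 2.28% were over 2-fold higher and 95.3% over 2-fold lower, so both member counts lay near the background. The median log2 fold change at PD60 was -6.07 for the HMG hairpins and -5.86 for all hairpins. As plain log2 ratios with counts under 3 raised to 3 tags, a floor set per column, these medians were -7.24 and -7.12.

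The direction of some hairpins depended on the scaling. Without the 50 hairpins that reached the highest CPM in any column, the PD40 column held 7256221 of its 8626437 tags and the PD60 column 1083764 of its 8270745. With TMM scaling, which takes most hairpins as unchanged, the median of all hairpins at PD60 was -1.84 and that of the HMG hairpins -1.74. On that scale 7 HMG hairpins were over 2-fold higher and 26 lower, beside 18.8% and 64.4% of all hairpins. Median-of-ratios scaling also gave 7 higher and 26 lower, beside 19.3% and 64.8%. Totals without those 50 hairpins gave 2 higher and 40 lower, beside 5.76% and 88.9%. The 7 hairpins were the same with both first scalings: 1 each against HMGA1, HMGB1, HMGB2, HMGB4, HMGN1, HMGN3 and NSBP1. All folds below are relative to the column total unless a scaling is named. A hairpin called the highest or the lowest by fold change of its gene is so by the log2 value with the pseudocount, and hairpins at 0 tags have no order by plain ratio.

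HMG hairpins were lower by less than the library as a whole at first, and not at the end. At PD45 their median log2 fold change was -0.86, beside -1.63 for all hairpins; 21 of 44 were over 2-fold lower, beside 63.2%, and 5 over 2-fold higher, beside 5.73%. At PD50 the medians were -2.37 and -3.46, with 31 lower beside 81.9% and 5 higher beside 4.94%. At PD55 they were -4.52 and -4.93, with 38 lower beside 91.7% and 2 higher beside 2.92%. With TMM scaling the medians were 0.28, 0.42 and 0.09 for HMG hairpins at these times and -0.43, -0.79 and -1.26 for all hairpins, so the HMG median was above 0 on that scale. It was below 0 at these times with median of ratios (-0.01, -0.14 and -0.37, beside -0.70, -1.21 and -1.58 for all hairpins) and with totals without the 50 hairpins (-0.55, -1.59 and -3.09, beside -1.34, -2.89 and -4.29). With TMM 15 HMG hairpins were higher and 8 lower at PD45, beside 19.8% and 34.3% of all hairpins. At PD50 it was 18 and 10, beside 25.6% and 46.4%, and at PD55 12 and 15, beside 23.6% and 54.8%.

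The median starting abundance was close to that of the library, while the spread was not even. From the lowest to the highest quintile of PD40 abundance there were 3, 9, 15, 11 and 6 HMG hairpins. HMG hairpins had 58 to 6937 tags at PD40 with a median of 1054, and all hairpins had a median of 1019. If each quintile of PD40 abundance had the share seen over all hairpins, 26.9 of the 44 would have been over 2-fold lower at PD45, where 21 were, and 41.9 at PD60, where 42 were. No HMG hairpin was at 0 tags at PD45 or PD50, beside 1.42% and 9.47% of all hairpins. At PD55 6 were at 0, beside 18.4%, and at PD60 16 were, beside 44.1%, where the quintile shares would give 17.9. The shares at 0 tags at PD45, PD50 and PD55 were not adjusted for starting abundance. None of these differences was tested, as hairpins of 1 gene share a target and are not replicates.

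Each interval was also taken by itself. Of hairpins with at least 10 tags in either column of a pair, 31 of 41 were over 2-fold lower at PD50 than at PD45, beside 71.4% of all hairpins, and 2 were over 2-fold higher, beside 2.22%. From PD50 to PD55 it was 32 of 36, beside 80.8%, with 1 higher, beside 1.7%. From PD55 to PD60 27 of 31 were lower, beside 73.2%, and 0 higher, beside 5.4%. The median log2 steps of the 4 intervals were -0.86, -1.47, -2.24 and -2.37 in order, beside -1.63, -1.60, -1.91 and -1.82 for all hairpins. HMG hairpins entered the last 2 intervals with more tags. Their medians over all 44 were 292.5 at PD50 and 60.5 at PD55, beside 66 and 11 for all hairpins. A hairpin with few tags has less room to go lower, and the steps were not adjusted for abundance at their start.

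In CPM most HMG hairpins were highest at the start and none at the end, which depended on the scaling. The highest CPM was at PD40 for 29 of 44, beside 80.4% of all hairpins. It was at PD45 for 10, beside 12%, at PD50 for 3, beside 3.98%, and at PD55 for 2, beside 1.74%. None was highest at PD60, beside 1.95%. With TMM scaling 17 were highest at PD40 and 2 at PD60, beside 50.5% and 12.3%. With median of ratios it was 17 and 7, beside 55.4% and 15.5%, and with totals without the 50 hairpins 25 and 1, beside 73.3% and 4.36%. Over 2-fold higher than PD40 in any later column were 7 of 44, beside 8.59% of all hairpins. They were 1 against HMGA1, 1 against HMGB1, 1 against HMGB2, 2 against HMGB4, 1 against HMGN1 and 1 against NSBP1. Both PD60 hairpins were over 2-fold higher in all 4 later columns, as were 0.789% of all hairpins.

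The non-targeting hairpin, the control of the same cultures, went from 4562 tags at PD40 to 1775, 669, 133 and 39. At PD60 it was 112-fold lower. Of the 44 HMG hairpins, 25 had a log2 fold change above its own at PD45, beside 44.7% of all hairpins, and 25 at PD50, beside 39.3%. At PD55 31 did, beside 61.4%, and at PD60 26 did, beside 65.7%. A hairpin with few tags at PD40 lies above the control even when it is lost. HMGB1 TRCN0000018931, with 153 tags at PD40 and 0 at PD55 and PD60, stood at -4.23. The control was at -5.40 and -6.53. The counts at PD55 and PD60 therefore include lost hairpins. This control is 1 hairpin, so its own spread is unknown.

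HMGB1 TRCN0000018930 carried most HMG tags of the late columns. It went from 6314 tags to 36403, 55983, 376753 and 163873, or 732, 4145, 6602, 32745 and 19814 CPM. It was thus higher than at PD40 in every later column, and in CPM highest at PD55. Its ratio to PD40 was 5.66 (5.51 to 5.82) at PD45, 9.02 (8.79 to 9.26) at PD50, 44.7 (43.6 to 45.9) at PD55 and 27.1 (26.4 to 27.8) at PD60. In the library it stood at rank 269 of 3443 by abundance at PD40, then at ranks 36, 25, 7 and 14. By fold change it was at rank 5 of 3419 at PD55 and rank 14 of 3418 at PD60. The direction of its last step turned with the scaling: from PD55 to PD60 the ratio was 0.605 with column totals but 1.19 with totals without the 50 hairpins, 2.25 with TMM and 3.28 with median of ratios. On those 3 scales it was therefore highest at PD60, at 174, 3115 and 3245 times its PD40 level, after 146, 1385 and 989 times at PD55. The size of these folds is uncertain. TMM takes most hairpins as unchanged, while 64.4% of all hairpins were over 2-fold lower at PD60 on that scale. Median of ratios used only the 1835 hairpins with tags in every column. TRCN0000018930 is itself 1 of the 50 hairpins, so the totals without them do not include it.

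The other 4 hairpins against HMGB1 were all at 0 tags at PD60. They started at 153 to 950 tags, in quintiles 1 to 3 of PD40 abundance, counted from the lowest. In those quintiles 84.5%, 69.8% and 45.7% of all hairpins were at 0 tags at PD60. TRCN0000018933, the most abundant of them, went from 950 to 296, 66, 11 and 0 tags, at least 304-fold lower at the floor of 3 tags. TRCN0000018931, TRCN0000018932 and TRCN0000018934 were at 5, 32 and 27 tags at PD45 and at 0 from PD55 on. Their PD60 values were at least 48.9-fold, 118-fold and 146-fold lower. The hairpins against this gene therefore lay far apart, and all of its 163873 tags at PD60 were those of TRCN0000018930. The gene's mean log2 fold change at PD60 was -3.49 (SD 4.70 over 5 hairpins), rank 42 of 631 genes with at least 3 hairpins, and -5.56 without that hairpin. As plain ratios with the same floor the mean was -4.63.

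HMGB2 is the paralog whose loss from the nucleus is known as an early event of senescence. Some of its hairpins were not over 2-fold lower through PD50. The same held for hairpins against other HMG genes, such as HMGN1 TRCN0000019061, HMGN3 TRCN0000019108 and HMGN4 TRCN0000115689. TRCN0000019012 went from 1207 tags to 2258, 4378, 2296 and 280. It was 3.69 times its PD40 level at PD50 (3.46 to 3.94), 1.43 times at PD55 and 4.13-fold lower at PD60. With TMM and median-of-ratios scaling its log2 fold change at PD60 was 4.71 and 4.79, so the direction at PD60 turned with scaling. TRCN0000019010 and TRCN0000019011 were within 2-fold of PD40 at PD45 and PD50 and ended at 1 and 11 tags.

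The remaining HMGB2 hairpins were lower throughout. TRCN0000019013, the most abundant at PD40, had 2567, 1084, 338, 85 and 0 tags, at least 820-fold lower at the end. TRCN0000019009 had 397 tags at PD40 and 8 at PD45. The HMGB2 mean was -0.85 (SD 2.26) at PD45, -1.49 (SD 2.76) at PD50, -3.23 (SD 2.35) at PD55 and -5.79 (SD 2.32) at PD60. The 280 tags of TRCN0000019012 were 95.9% of the gene's 292 tags at PD60.

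HMGB4 is a testis-enriched member of the family that lacks the acidic tail. At PD45 it had 2 hairpins over 2-fold higher, more than any other HMG gene. TRCN0000016622 went from 888 tags to 2247 at PD45, then to 858, 328 and 6. TRCN0000016619 went from 700 to 1603, 391, 48 and 0. Both were above PD40 at PD45 and below it at PD55 and PD60. They were 142-fold lower and at least 224-fold lower at PD60.

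The other HMGB4 hairpins were highest at PD40. TRCN0000016620, the most abundant and the highest by fold change at PD60, had 1938, 1631, 749, 213 and 44 tags, 42.2-fold lower at the end. TRCN0000016618, the lowest by fold change, had 1544, 972, 247, 67 and 3 tags, a PD60 ratio of 0.00203 (0.000417 to 0.00593). TRCN0000016621 started at 380 tags and had none from PD55 on. The gene mean was -0.45 (SD 2.03) at PD45, rank 47 of 631, and -5.99 (SD 0.74) at PD60, rank 424. TMM scaling put TRCN0000016620 at 1.41 on the log2 scale at PD60, the only HMGB4 hairpin over 2-fold higher on that scale.

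HMGA1 and HMGA2 had no hairpin over 2-fold higher at PD60. All 9 were over 2-fold lower, as were 95.3% of all hairpins, with log2 fold changes from -8.27 to -4.02. HMGA1 TRCN0000018951 stood apart at the earlier times, with 1114, 1754, 2479, 766 and 58 tags in time order. Its ratio was 2.26 (2.11 to 2.43) at PD50 and it was 18.4-fold lower at PD60. With TMM and median-of-ratios scaling its log2 fold change at PD60 was 2.56 and 2.63, over 2-fold higher.

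In CPM the other HMGA1 hairpins were below PD40 in every later column. TRCN0000018949, the most abundant at 2842 tags and the lowest by fold change, went to 1961, 847, 152 and 1, a PD60 ratio of 0.000367 (9.3e-06 to 0.00205). TRCN0000018952 had 824 tags at PD40 and 8 at PD60. TRCN0000018950 and TRCN0000018953 ended at 0. The HMGA1 mean was -1.21 (SD 1.61) at PD50, rank 35 of 631, and -6.17 (SD 1.55) at PD60, rank 469. The order at PD50 put HMGA1 highest among the 9 genes, although each of the other means except that of HMGA2 lay nearer to it than the larger SD of the 2 genes.

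HMGA2 had the lowest mean of the 9 genes at PD50, PD55 and PD60. HMGA2 is a fetal chromatin factor known to repress the INK4a locus in stem cells. TRCN0000021968, its most abundant and its highest hairpin, had 6015, 6626, 1449, 316 and 44 tags, 131-fold lower at PD60. TRCN0000021965, the lowest by fold change, had 5216, 1588, 447, 93 and 8 tags, 625-fold lower. Both started in the highest quintile of PD40 abundance. TRCN0000021964 ended at 7 tags, and TRCN0000021967, with 1034 tags at PD40, was at 12 by PD50 and at 0 from PD55 on, at least 330-fold lower.

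The mean of the 4 HMGA2 hairpins was -3.33 (SD 1.68) at PD50, rank 342 of 631, -5.68 (SD 1.02) at PD55, rank 559, and -7.20 (SD 0.71) at PD60, rank 612. Their PD60 values were 0.846, 0.967, 0 and 5.32 CPM, beside a pseudocount of 1 CPM. Values that low are drawn together by the pseudocount, so the small SD does not show that the hairpins were alike. HMGB4 and HMGN4 also had small SDs at PD60, 0.74 and 0.83. All of the 4 HMGA2 hairpins were over 2-fold lower at PD50, PD55 and PD60, beside 81.9%, 91.7% and 95.3% of all hairpins. Hairpins that start high can go lower before they reach 0, and HMGA2 had the highest median PD40 count of the 9 genes, 3519.5 tags. In the highest quintile of PD40 abundance all hairpins had a median log2 fold change of -6.24 at PD60, and in quintiles 3 and 4, counted from the lowest, -6.62 and -7.19.

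Of the HMGN genes, NSBP1 had the hairpin that stayed above its start. HMGN5, its product, has a long acidic tail and is known to counter linker histone H1. TRCN0000019876 had 579, 1360, 3502, 8560 and 1152 tags in time order, or 67.1, 155, 413, 744 and 139 CPM. In CPM each column through PD55 was above the one before, and PD60 lay close to PD45. Its ratio was 2.31 (2.09 to 2.55) at PD45, 6.15 (5.63 to 6.73) at PD50, 11.1 (10.2 to 12.1) at PD55 and 2.08 (1.88 to 2.30) at PD60. The PD60 interval includes 2, and with a pseudocount of 10 this hairpin was no longer over 2-fold higher. With the other scalings its PD60 ratio was far above that at PD45: 239 against 5.19 with TMM, 249 against 4.20 with median of ratios and 13.3 against 2.87 with totals without the 50 hairpins. From PD55 to PD60 it was 5.34-fold lower with column totals, while the step was 0.696 with TMM, 1.02 with median of ratios and 0.369 with totals without the 50 hairpins.

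The other 4 NSBP1 hairpins were over 2-fold lower in every later column, beside 63.2%, 81.9%, 91.7% and 95.3% of all hairpins in time order. TRCN0000019877, the most abundant, had 1672, 646, 137, 95 and 16 tags, 100.2-fold lower at PD60. TRCN0000019874, the lowest by the log2 value with its pseudocount (-7.19), had 1559, 364, 35, 5 and 2 tags, a ratio of 0.00134 (0.000162 to 0.00484). TRCN0000019875 went from 1057 tags to 1, with a log2 value of -6.78 but a plain ratio that was lower, 0.000987 (2.5e-05 to 0.00551), and the intervals overlap. TRCN0000019878 had the lowest start of all 44, 58 tags, and was at 0 from PD55 on, at least 18.5-fold lower. The gene mean at PD60 was -4.39 (SD 3.46), rank 101 of 631, and -5.74 without TRCN0000019876.

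HMGN1, known for its part in repair of DNA damage in chromatin, had the highest mean of the 9 genes at PD45. The mean was 0.01 (SD 1.23), rank 12 of 631. Of its 5 hairpins 4 were above their PD40 CPM at PD45, by 0.19 to 1.02 on the log2 scale. TRCN0000019059, the most abundant HMG hairpin at PD40, had 6937, 14316, 14293, 7713 and 713 tags. It was 2.03 times its start at PD45 (1.97 to 2.09) and 2.10 times at PD50 (2.04 to 2.16), and 9.33-fold lower at PD60. With TMM and median-of-ratios scaling its log2 fold change at PD60 was 3.61 and 3.67, again turning the direction.

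By PD60 the HMGN1 hairpins were all over 2-fold lower, as were 95.3% of all hairpins. TRCN0000019060, the lowest by fold change, had 3277, 3817, 822, 175 and 2 tags, a PD60 ratio of 0.000637 (7.7e-05 to 0.00230). TRCN0000019061 and TRCN0000019062 also had more tags at PD45 than at PD40, 2452 and 2401, and ended at 8 and 4. TRCN0000019063, with 156 tags at PD40, was at 30 at PD45 and at 0 at PD60. The gene mean at PD60 was -5.89 (SD 2.08), rank 397. TRCN0000019059 held 98.1% of the gene's 727 tags there.

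HMGN3, which binds nucleosomes and the thyroid hormone receptor, had no hairpin over 2-fold higher in any column. TRCN0000019108 stayed nearest its start, with 777, 523, 629, 585 and 47 tags, within 2-fold of PD40 through PD55 and 15.9-fold lower at PD60. TMM and median-of-ratios scaling put it at 2.74 and 2.82 on the log2 scale at PD60. TRCN0000019105, the most abundant and the lowest by fold change, had 3207, 4352, 1524, 200 and 4 tags, 769-fold lower. The other 3 hairpins had 1010 to 1692 tags at PD40 and 0 to 19 at PD60. The mean at PD60 was -6.10 (SD 1.55), rank 455.

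HMGN4, encoded by an intronless copy of HMGN2, had 13 tags left at PD60 from 3873 at PD40, the fewest of the 9 genes. TRCN0000115691, the most abundant and the lowest by fold change, had 1355, 457, 48, 10 and 0 tags, at least 433-fold lower. TRCN0000115688, the highest by fold change at PD60, had 552, 71, 4, 3 and 7 tags. TRCN0000115690 was near 2-fold higher at PD45 (0.98 on the log2 scale; 377 to 765 tags) and at 0 at PD60. TRCN0000115689 was within 2-fold of PD40 at PD45 and PD50. The mean at PD60 was -6.03 (SD 0.83), rank 436, and HMGN4 had no hairpin over 2-fold higher in any column.

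Set in order, the gene means at PD60 ran from HMGB1 at -3.49 and NSBP1 at -4.39 through HMGB2 at -5.79, HMGN1 at -5.89, HMGB4 at -5.99, HMGN4 at -6.03, HMGN3 at -6.10 and HMGA1 at -6.17 to HMGA2 at -7.20. Neighbours in this order differed by less than the SD over their hairpins, except that the step from HMGA1 to HMGA2 was larger than the HMGA2 SD and smaller than the HMGA1 SD. The median over 631 genes was -5.58, and 2 of the 9 means lay above it. At PD45 and PD50, 8 of the 9 lay above the median gene (-1.61 and -3.21), and at PD55 7 did (-4.59). With TMM and median-of-ratios scaling the PD60 means of HMGB1 and NSBP1 were above 0. Each of these means joined 1 hairpin far above its start with 4 that were not over 2-fold higher. With TMM the first was TRCN0000018930 at 11.59 for HMGB1 and TRCN0000019876 at 7.72 for NSBP1. The other 4 HMGB1 hairpins were at 0 tags, where the pseudocount sets how low a log2 value can go. Of 631 genes, 25.7% had a hairpin over 2-fold higher at PD45, where 4 HMG genes did (HMGB1, HMGB4, HMGN1 and NSBP1). At PD60 it was 10.1%, and 2 HMG genes (HMGB1 and NSBP1).

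By family, the share of tags went from 0.239% at PD40 to 1.99% at PD60 for HMGB hairpins, from 0.238% to 0.00152% for HMGA and from 0.354% to 0.0241% for HMGN. All 44 together went from 0.830% (0.824 to 0.836) of tags to 1.13%, 1.13%, 3.48% and 2.01% (2.00 to 2.02) in time order. The higher late share was that of HMGB1 TRCN0000018930, which made up 94.2% of the HMG tags at PD55 and 98.5% at PD60. Without it the HMG share was lower in each later column than in the one before, at 0.757%, 0.713%, 0.465%, 0.202% and 0.0298%. The median log2 fold change at PD60 was -6.85 for HMGA, -5.76 for HMGB and -6.02 for HMGN, beside -5.86 for all hairpins. Over 2-fold lower were 9 of 9, 14 of 15 and 19 of 20 hairpins, near the 95.3% of all hairpins.

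Other genes with ties to these proteins were described from lists of textbook members. For proteins with an HMG box outside the 9 genes, 14 genes with 63 hairpins were in the table. Of these hairpins 1 was over 2-fold higher at PD60 and 60 lower, with a median of -5.84, beside 2.28%, 95.3% and -5.86 for all hairpins. That hairpin was PBRM1 TRCN0000015994, against a subunit of the SWI/SNF remodeller, with 7499, 16961, 8813, 8164 and 76045 tags, so its ratio of 10.6 rested on the last column. The gene means ran from -6.88 (SD 1.90) for TCF7L1 to -3.43 (SD 3.04) for TCF7L2, both transcription factors of Wnt signalling.

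Linker histones, the chromatin proteins with which HMGN proteins compete, were represented by 11 genes with 55 hairpins. At PD60 all 55 were over 2-fold lower (median -5.86), beside 95.3% of all hairpins. Over 2-fold higher were 5 at PD50 and 4 at PD45, beside 4.94% and 5.73% of all hairpins. HIST1H1B TRCN0000106809 was the highest of those 5 at PD50, with 3782, 21094, 62721, 19510 and 263 tags in time order. Gene means at PD60 ran from -6.40 (SD 1.77) for HIST1H1T to -4.84 (SD 0.74) for HILS1. For factors of senescence heterochromatin and the nuclear lamina, 15 genes with 79 hairpins were in the table. At PD60 2 of these hairpins were over 2-fold higher and 74 lower (median -5.85), beside 2.28% and 95.3% of all hairpins. The means of these 15 genes ran from -6.91 (SD 1.04) for RBL1 to -3.71 (SD 4.65) for LMNB1, which encodes lamin B1. LMNB1 TRCN0000029272 was at 20.7 times its start. The design text names lamin B1 hairpins among the controls, as ones that hasten senescence.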

How the data were processed

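The authors deposited raw counts of sequence tags for each hairpin, per the file headers, in 1 column for every PD. The submitters' processing notes list Bowtie 1.0.1. Not given in the sources used here are its settings, its reference and how the 10 plates were joined. Columns were taken as the authors' pooled values, so there were no replicates and no test was run. The labels list 50 samples, 10 per doubling; values per plate were not used here. The design text names 3455 hairpins; the table has 3443, of which 188 name several genes.

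Names were stripped of trailing spaces and matched exactly. Counts were divided by column totals (CPM). Log2 fold changes used a pseudocount of 1 CPM and at least 10 tags in either column. Ratios carry exact conditional binomial 95% intervals. For hairpins at 0, a floor of 3 tags per column gave a bound. Gene means were taken over hairpins naming only that gene. Python 3.11.15, numpy 2.4.6, pandas 2.3.3 and scipy 1.17.1 were used, with edgeR 4.0.16 (TMM) and DESeq2 1.42.0 (median of ratios, over 1835 hairpins with tags in every column) in R 4.3.3 for scaling factors only. The TMM factor was 8.94 for the PD40 column and 0.0777 for PD60. Fold changes, calls and intervals were run on simulated counts that held counting error only and in which most hairpins were unchanged. In these data 95.3% of hairpins were over 2-fold lower at PD60, so that run cannot vouch for calls under such a shift.

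The members and lists were chosen with earlier results of these data known. Named were, per gene, the highest and the lowest hairpin at PD60, the most abundant at PD40 and any over 2-fold higher in a later column, with others by range; per list, the highest and the lowest gene. Hairpins named beyond this were chosen after their values were seen. Changes before PD40 were not measured. Of the 3 genes nearest to HMGB1 by likeness of means, 1 is not reported here.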

Additional observations from a re-analysis of the deposited data

How the results depend on the processing

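No paired analysis was possible because a PD has a single column that joins its 10 plates. Over 2-fold higher at PD60 were 2 HMG hairpins, 7 with TMM or median-of-ratios scaling, and 1 with a pseudocount of 10, with a 4-fold threshold or without HMGB1 TRCN0000018930. Over 2-fold lower were 42, and 26 with TMM or median-of-ratios scaling. The other settings gave 2 higher and 34 to 44 lower, where the 34 were of 36 hairpins with at least 500 tags at PD40. Of all hairpins 2.28% were higher and 95.3% lower in the main setting. It was 18.8% and 64.4% with TMM, 19.3% and 64.8% with median of ratios, and 5.76% and 88.9% with totals without the 50 most abundant hairpins. With a pseudocount of 10 it was 2.19% and 91.9%, with the 4-fold threshold 1.26% and 93.1%, and with at least 500 tags 3.11% and 93.7%. The median log2 fold change of -6.07 and the median of the 9 gene means, -5.99, were -1.74 and -1.17 with TMM, -1.82 and -1.24 with median of ratios, and -5.58 and -4.85 with totals without the 50 most abundant hairpins. They were -3.60 and -3.43 with a pseudocount of 10, -8.40 and -7.72 with 0.1, -4.52 and -3.91 for PD55 against PD40, and -4.60 and -4.25 for the late against the early pair of columns. With at least 500 tags at PD40 the median was -6.58. The PD60 mean turned positive for HMGB1 (0.19 with TMM, 0.04 with median of ratios) and NSBP1 (0.44 with both). Each of those 2 means joins 1 hairpin far above its start, TRCN0000018930 or TRCN0000019876, with others that were not over 2-fold higher. No other gene mean of the 9 turned sign in 12 alternatives. Members at 0 tags were 16 at PD60 and 6 at PD55. The share of tags, 2.01%, was 3.48% at PD55, 0.0298% without TRCN0000018930 and 0.227% without the 50 most abundant hairpins in either term. The 4-fold threshold, and hairpins naming several genes in the counts and the median, were added after the data were seen. Values at or near 0 tags set how low a fold change can go, so the pseudocount moved every median. Unless a construction shows it, the cause was not tested.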

Other observations

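Hairpins that the table assigns to an HMG gene together with other genes were left out of the report and are given here as values. TRCN0000021966, naming HMGA2 and ELAC2, a tRNA-processing enzyme, started higher than any of the 44, with 12524 tags at PD40, and went to 2044, 187, 47 and 8, 1501-fold lower at PD60. TRCN0000063714, naming HMGB1 and 4 other genes, went from 167 tags to 10, 2, 0 and 0. HMGB3, a further HMGB paralog, had 5 hairpins, 2 of which name it alone; those went from 720 and 1757 tags to 0. HMGN2, the parent gene of HMGN4, had 5 hairpins of which TRCN0000018551 names it alone, with 4813, 6676, 3536, 1821 and 82 tags. TRCN0000018550, which names HMGN2 and 9 other loci, was highest at PD50, with 2434, 3268, 7367, 3073 and 57 tags.

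Among 622 other genes with at least 3 hairpins, PAK1, a kinase of cytoskeletal signalling, and HORMAD2, a protein of meiotic chromosomes, were nearest to HMGB1 by the root mean square distance of mean log2 fold changes over the 4 later columns (0.177 and 0.192). Means were -1.94, -2.88, -3.16 and -3.49 for HMGB1, -2.13, -2.74, -3.12 and -3.76 for PAK1 and -1.63, -2.99, -3.34 and -3.43 for HORMAD2. These means share the column totals, and the HMGB1 mean joins 1 hairpin far above its start with 4 far below it.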
